A study of Homo sapiens with 19 samples.

Results

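The mutually exclusive exon events of the series are the rows that the authors' rMATS tables list under the event type MXE, in which a transcript carries either the 5′ or the 3′ exon of a neighbouring pair. Rows of this type were taken from all 9 deposited comparison tables and merged by gene and exon, without use of the tables' difference or p columns. This gave 15984 events among 82835 splicing events of all 5 types, of which 62051 were cassette exons. The flanks and the second exon could be placed for 13945 events, and 2039 were not placed. These made 13876 distinct sets of junctions. Sets were tested where both exons together averaged 20 reads or more in a library and the 5′ exon took 2% to 98% of them over all 14 libraries used for the test, which 11197 sets in 4214 genes met. Of the remainder, 2128 had too few reads and 551 lay outside the range of shares.

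Exons of a mutually exclusive pair usually arose by exon duplication, so that a gene can exchange one stretch of protein for a related one while the rest stays as it is. Tropomyosins, α-actinins, MAP kinases, fibroblast growth factor receptors and pyruvate kinase use such pairs, and the choice often differs between tissues. RBFOX2 is an RNA-binding protein that recognises GCAUG in introns and exons and shifts splice site choice according to whether it binds upstream or downstream of an exon.

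The libraries were ribosomal RNA-depleted RNA from 3 human cell lines, counted as sequencing reads across splice junctions. A set of 14 libraries came from HUES66 embryonic stem cells that all received 1 µg/ml doxycycline, and the series title names Cas13d, an RNA-cutting enzyme directed by guide RNAs, as the means of knockdown. They comprised 3 controls of wild-type genotype (24 hr replicate 2, 48 hr and 96 hr), 3 total RBFOX2 knockdowns (total KD; 24 hr replicate 1, 48 hr and 96 hr) and 4 libraries each of the N-short and N-long isoform knockdowns (both 24 hr replicates, 48 hr and 96 hr). The other 5 were wild-type HUES66, HEK293 (an embryonic kidney line), and total, nuclear and cytoplasmic RNA of A375 (a melanoma line), 1 library each. The labels do not say whether the wild-type HUES66 library is the control of 24 hr replicate 1. They also do not say that replicates are separate cultures, so p-values measure the spread between these libraries, which may be technical. With 1 library per group in a time point and replicate, this spread also includes any change of a knockdown's effect with time. Junction reads per library ranged from 6499183 to 27937149, and from 9622841 to 14625040 in the doxycycline set. Of 1000000 junction reads, RBFOX2 took 119 to 126 in control libraries. It took 107 to 120.4 with N-short KD and 72.7 to 87.6 with N-long KD. With total KD it took 48.2 at 24 hr, 78.7 at 48 hr and 75.8 at 96 hr. N-long KD had 73.8 at 24 hr replicate 1, 87.6 at 48 hr and 80.4 at 96 hr. Pluripotency markers were present in HUES66, all 7 at or above 1 read in 1000000 in its 15 libraries. In A375 total RNA and in HEK293, 2 of the 7 reached that level, and L1TD1 and TDGF1 were at 0. The 7 markers summed to 2679 to 4341 in HUES66, 9.15 in A375 total RNA and 47.5 in HEK293. Markers of other cells that a stem cell culture could hold summed to 142 to 232 in HUES66, 14.5 in A375 total RNA and 188 in HEK293.

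Most tested events did not behave as exclusive choices in the reads. For each event, 4 kinds of read were counted in the 14 doxycycline libraries: reads of the 5′ exon, reads of the 3′ exon (each the mean of the exon's upstream and downstream junction), reads joining both exons, and reads skipping both. The junction joining both exons held more than 30% of these reads in 8956 of 11197 events (80%), with a median of 47.7% over all events. In 9926 events (88.6%) it had more reads than the downstream junction of the 5′ exon and the upstream junction of the 3′ exon together. For 10593 events (94.6%), neither exon was used from both sides, meaning that its weaker junction had under 25% of the reads of its stronger one. Over both exons of all tested events, the median was 3 reads for the weaker junction and 975 for the stronger one in the 14 libraries together. Only 644 events (5.75%) had all 4 junctions in GENCODE 29. Names in the deposited data point to a later release, 41, so junctions added after release 29 counted as not annotated.

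The pairs that were exclusive in the reads numbered 40, in 37 genes, or 0.357% of the tested events. These pairs used both junctions of each exon and had at most 10% of reads joining or skipping the exons. The junction criterion was added after the data were seen, from pooled reads and without the groups. Another 1656 events had few joined or skipped reads but an exon used from 1 side only, and 37 used both sides but joined or skipped the exons in over 10% of reads. In the 40 pairs, the joined reads had a median of 0.354% and a maximum of 7.25%. In 14 pairs no read joined the exons, and in 7 no read joined or skipped them. All 4 junctions were annotated in 40 of 40. Nearest the limits, the weaker junction had 33.8% of the stronger in ITGA7 (inside) and 11.8% in a second MEF2A event (outside), while joined plus skipped reads were 9.11% in VPS13B (inside) and 11.7% in PPIL3 and TEAD3 (outside).

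**Figure D1:**
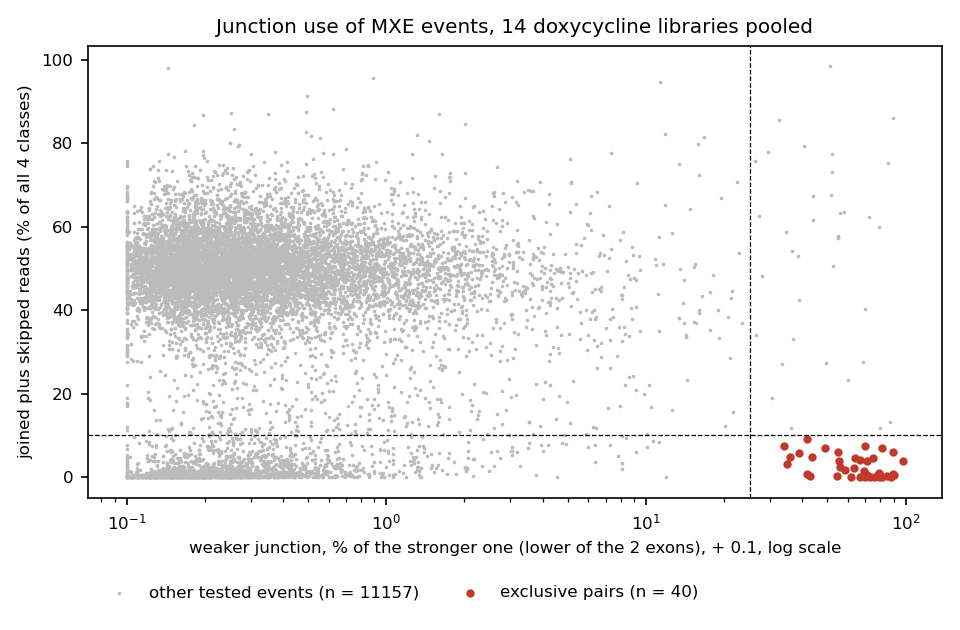
Each point is 1 of 11197 tested events: the horizontal axis (log scale) is the weaker junction as a percent of the stronger one for the more lopsided exon, and the vertical axis is the percent of reads that join or skip both exons. Grey events form one cloud near 50% joined and another near 0% at the left, and the 40 exclusive pairs (red) lie in the lower right corner set by the dashed limits of 25% and 10%.

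The exon sequences below belong to the pairs in TPM1, PKM, ACTN1, FYN and DNM2, which passed the test in total KD. They were read from GENCODE 29 transcripts on GRCh38, the build that the files use, and are shown 5′ to 3′ on the strand of the gene. Capitals mark bases that differ from the partner exon, position by position where the exons are equally long, and by a global alignment with gaps in ACTN1 and FYN. All 10 are annotated coding exons. In TPM1 (tropomyosin 1, an actin filament protein) the exons lie at chr15:63061198-63061273 and chr15:63061713-63061788 on the plus strand, and 43 of 76 positions were identical.
TPM1 5′ exon: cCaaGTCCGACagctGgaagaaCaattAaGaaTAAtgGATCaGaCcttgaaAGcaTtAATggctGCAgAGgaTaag
TPM1 3′ exon: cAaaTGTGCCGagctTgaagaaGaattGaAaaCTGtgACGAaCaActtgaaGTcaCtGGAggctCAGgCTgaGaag
In PKM (pyruvate kinase, the last enzyme of glycolysis) the exons lie at chr15:72203022-72203188 and chr15:72202454-72202620 on the minus strand, with 105 of 167 positions identical. The 5′ exon gives the M1 enzyme and the 3′ exon the M2 enzyme of proliferating cells.
PKM 5′ exon: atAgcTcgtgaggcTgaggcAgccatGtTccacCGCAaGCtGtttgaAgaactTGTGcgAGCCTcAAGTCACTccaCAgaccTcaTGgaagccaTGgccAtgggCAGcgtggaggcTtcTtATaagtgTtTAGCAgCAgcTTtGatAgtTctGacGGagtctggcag
PKM 3′ exon: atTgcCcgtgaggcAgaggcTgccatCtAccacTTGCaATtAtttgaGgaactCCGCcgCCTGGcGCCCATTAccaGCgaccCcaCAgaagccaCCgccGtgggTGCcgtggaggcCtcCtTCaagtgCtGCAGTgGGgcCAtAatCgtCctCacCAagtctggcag
In ACTN1 (α-actinin-1, an actin crosslinker) the exons at chr14:68878989-68879069 and chr14:68878458-68878523 on the minus strand encode part of the EF-hand domain. The longer, 5′ exon belongs to the calcium-sensitive non-muscle form and the 3′ exon to the smooth muscle form. The 3′ exon holds GCATG, the DNA letters of the RBFOX motif.
ACTN1 5′ exon: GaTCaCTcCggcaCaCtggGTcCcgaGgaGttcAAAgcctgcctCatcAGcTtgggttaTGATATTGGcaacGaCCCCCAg
ACTN1 3′ exon: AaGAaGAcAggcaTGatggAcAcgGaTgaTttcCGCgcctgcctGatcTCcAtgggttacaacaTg
In FYN (a SRC-family tyrosine kinase) the exons at chr6:111700104-111700268 and chr6:111699515-111699670 on the minus strand encode the end of the linker after the SH2 domain and the first part of the kinase domain. The 5′ exon gives the form known from brain, FynB, and the 3′ exon the form known from T cells, FynT.
FYN 5′ exon: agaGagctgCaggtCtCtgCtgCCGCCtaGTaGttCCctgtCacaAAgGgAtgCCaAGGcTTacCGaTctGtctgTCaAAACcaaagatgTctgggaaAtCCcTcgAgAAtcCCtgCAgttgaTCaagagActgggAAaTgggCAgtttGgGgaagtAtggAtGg
FYN 3′ exon: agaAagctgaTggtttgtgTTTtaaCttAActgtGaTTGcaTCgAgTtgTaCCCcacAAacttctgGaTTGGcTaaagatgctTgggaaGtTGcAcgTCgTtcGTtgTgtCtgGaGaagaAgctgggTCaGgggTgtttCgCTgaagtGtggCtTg
In DNM2 (dynamin 2, a GTPase that cuts endocytic vesicles free) the exons lie at chr19:10796061-10796199 and chr19:10797380-10797518 on the plus strand, with 97 of 139 positions identical.
DNM2 5′ exon: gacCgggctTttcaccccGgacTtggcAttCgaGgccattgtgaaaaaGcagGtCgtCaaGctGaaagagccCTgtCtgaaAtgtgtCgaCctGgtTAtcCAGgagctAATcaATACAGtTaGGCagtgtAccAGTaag
DNM2 3′ exon: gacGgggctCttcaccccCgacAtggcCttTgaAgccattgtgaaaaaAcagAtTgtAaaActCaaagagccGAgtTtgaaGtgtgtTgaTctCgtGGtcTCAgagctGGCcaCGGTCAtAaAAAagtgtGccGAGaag

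The 40 pairs also shared features that the criterion did not use. The 2 exons had equal lengths in 19 pairs (47.5%), against 127 of the other 11157 tested events (1.14%). Their lengths differed by a multiple of 3, so that the reading frame after the pair does not depend on the choice, in 37 of 40 (92.5%) against 37.5% of the others. In 25 of these 37, neither exon was itself a multiple of 3 long, as in TPM1 (76 nt both) and RAB6A (106 nt both). Only 32.5% of the 80 exons were a multiple of 3 long, and of 9243 tested cassette exons 47.4% were. Identity over the longer exon, by edit distance, was at least 55% in 21 of the 39 pairs with both sequences (53.8%), against 1.09% of the other events. The most alike pair was that of ACTN4 with exons of 86 nt (α-actinin-4), at 75.6%, followed by DNM2 at 71.9% and RAB6A at 71.7%. Identity taken over the longer exon cannot exceed the ratio of the shorter to the longer length, so it is not independent of equal length. PHF21A, with exons of 23 and 164 nt, had the lowest value, 14%, which is the ceiling for its lengths.

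The exons of a pair lay close together, with a median of 364 nt between them, against 3521 nt in the other events. The gap was under 1000 nt in 32 pairs (80%) and in 17.0% of the others. KIAA0753 had the shortest gap at 35 nt. Both exons were annotated as coding over their whole length in 36 of 40, and in 90% of the other events. The exceptions were SNHG14, a noncoding transcript, and 1 exon each of FBRSL1, KIAA0753 and ACER3. A search of the exons for GCATG on the transcribed strand found it in 8 of 39 pairs (20.5%) and in 20.5% of the other events. They included CALU, ACP1, ACTN1, ACTN4 (81 and 66 nt), FGFR2, MCM8 and NGLY1. The introns beside the exons were not analysed here.

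**Figure D2:**
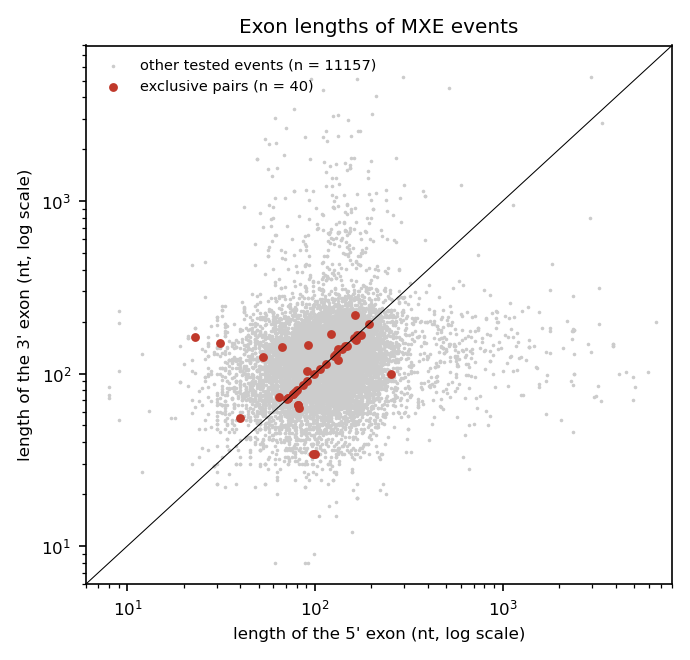
Length of the 5′ exon (horizontal) against that of the 3′ exon (vertical), both in nt on log scales, for the 11157 other tested events (grey) and the 40 exclusive pairs (red). A total of 19 red points lie on the diagonal of equal length.

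Many of the 40 pairs favoured 1 exon strongly in HUES66. The pooled share of the 5′ exon was under 10% or over 90% in 16 pairs and between 20% and 80% in 12. PKM was the most deeply covered pair, with a mean of 1704 reads per library, and ACSL1 the least, with 20.7. The median was 75.8 reads, and 13 pairs had under 50 reads. Over the 14 doxycycline libraries, the share of a pair spanned 2.23 to 47.8 points, with a median of 15.3. Shares recomputed from the junction files differed from the length-normalised inclusion levels of the deposited tables by a median of 0.723 points in the 40 pairs.

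Total KD changed 5 of the 40 pairs at an adjusted p under 0.05 (edgeR quasi-likelihood test, Benjamini-Hochberg over the 21937 events of all types tested). The 5′ exon rose in TPM1 and ACTN1 and fell in FYN and DNM2. The fifth was PKM, whose 5′ exon was above the 2% limit for testing only through knockdown libraries, so its call is not independent of that limit. Over all tested events 0.387% passed in this comparison, 0.116% of MXE events (13 of 11197) and 0.757% of cassette exons. The median absolute log2 odds ratio was 0.42 over the 40 pairs and 0.15 over all tested MXE events. It was also larger in the pairs in N-short KD, where nothing passed (0.26 against 0.13), in N-long KD (0.36 against 0.13) and in N-long against N-short KD (0.35 against 0.12). With the form counts of the deposited tables in place of the junction counts, 29 of 11559 MXE events (0.251%) passed in total KD, 11 (0.0952%) in N-long KD, 12 (0.104%) between the isoform knockdowns and 0 in N-short KD. Of the 20261 events of all types tested with these counts, 121 passed in total KD, 45 in N-long KD, 39 between the isoform knockdowns and 0 in N-short KD. Libraries of the control and of total KD meet in the same set only at 48 and 96 hr. Total KD at 24 hr stands beside isoform knockdowns of its own set. With DESeq2 1 of the 5 pairs, TPM1, still passed, and with limma 1, FYN.

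The 5′ exon of TPM1 had a share of 81.5% in the control of 24 hr replicate 2, 62.3% at 48 hr and 83.6% at 96 hr. In total KD it was 93.5% at 24 hr, 83.3% at 48 hr and 90.8% at 96 hr. All 4 libraries of the 48 hr set were low, so the groups overlapped across sets although total KD was higher within both. The difference within sets averaged 14.1 points (SD 9.80, n = 2 sets), with a log2 odds ratio of 1.46 ± 0.14 (SE) and an adjusted p of 1.03e-06. Wild-type HUES66 had 83.0%. The first TPM1 pair, 126 nt exons near the start of the gene, did not pass (log2 odds ratio -0.24 ± 0.31), with shares of 1.49% to 3.98% in the 14 libraries.

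PKM kept to its M2 exon in every library, and the share of the M1 exon was 1.29% to 1.61% in the 3 controls. In total KD it was 1.93% at 24 hr, 3.23% at 48 hr and 3.39% at 96 hr, above every control. The difference within sets was 1.76 points (SD 0.193, n = 2 sets; log2 odds ratio 1.03 ± 0.17, edgeR adjusted p = 0.00334). The call was lost without the 48 hr control (adjusted p = 0.0715) or the 96 hr control (0.072). The pooled M1 share of 2.02% lay just inside the 2% limit for testing, while all 3 controls were under it. The pair met the limit in 11 of 14 fits that left out 1 library, and without filters on low counts it did not pass (adjusted p = 0.0900).

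ACTN1 used mainly its non-muscle exon. Its share was 94.6%, 92.4% and 94.4% in the controls at 24, 48 and 96 hr, and 98.6%, 97.8% and 98.3% in total KD, without overlap. The share rose by 4.70 points within sets (SD 1.03, n = 2 sets; log2 odds ratio 1.93 ± 0.32, edgeR adjusted p = 0.00225). ACTN4, whose pair of 81 and 66 nt exons has the same lengths, had 87.9% in the control and 91.1% in total KD at 48 hr, 89.8% and 92.1% at 96 hr, and did not pass (log2 odds ratio 0.34 ± 0.19, adjusted p = 1).

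FYN showed the widest difference among these pairs. The 5′ (FynB) exon had a share of 47.7% in the control at 24 hr, 59.4% at 48 hr and 44.7% at 96 hr, from 65 to 85 reads. In total KD it was 30%, 28.0% and 23.1%, below every control. It fell by 26.5 points within sets (SD 6.90, n = 2 sets; log2 odds ratio -1.56 ± 0.22, edgeR adjusted p = 0.000411). The 4 N-short libraries lay between 46.4% and 57.3%, within the range of the controls.

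DNM2 had a 5′ exon share of 27.1% in the control at 24 hr, 18.6% at 48 hr and 32.0% at 96 hr. Total KD had 19% at 24 hr, 4.67% at 48 hr and 13.3% at 96 hr. The control at 48 hr lay just below total KD at 24 hr, so the groups overlapped across sets, and within sets the share fell by 16.4 points (SD 3.42, n = 2 sets; log2 odds ratio -1.52 ± 0.29, edgeR adjusted p = 0.0105). The pair had 74 to 109 reads per library, and the call was lost without the control or total KD library of 48 hr (adjusted p = 0.111 and 0.143) or of 96 hr (0.278 and 0.0896).

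**Figure D3:**
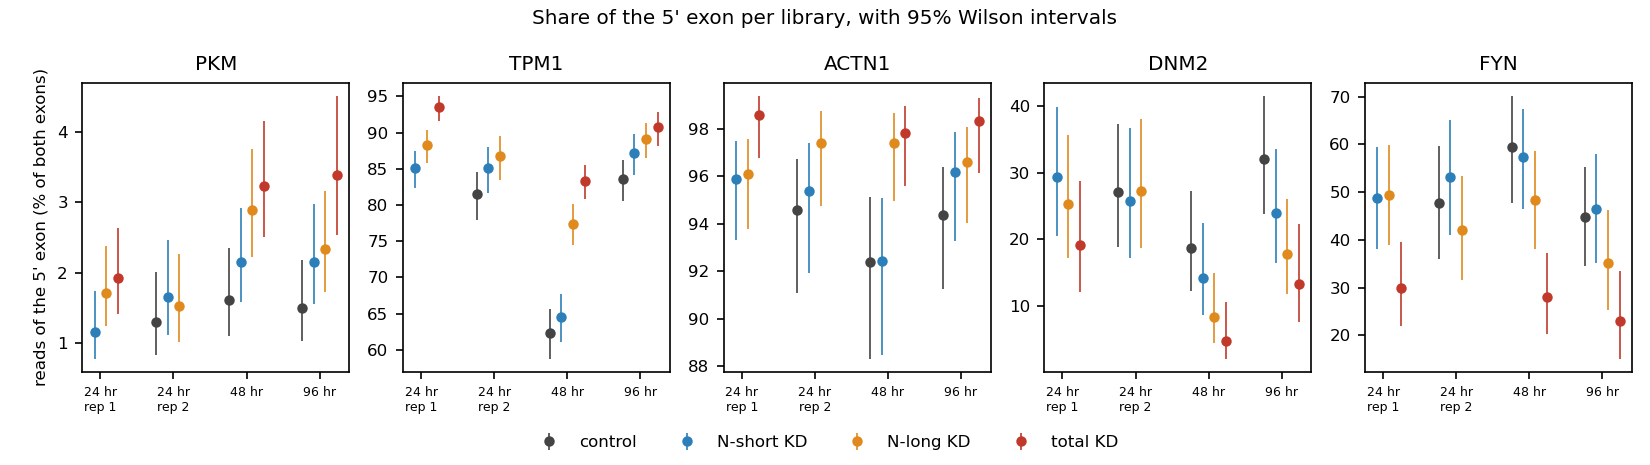
Share of the 5′ exon (vertical axis, percent of the reads of both exons) in each of the 14 doxycycline libraries, by library set (horizontal axis), for the 5 pairs that passed in total KD. Bars are 95% Wilson intervals for counting error, and the total KD points (red) lie above the controls of their set in PKM, TPM1 and ACTN1 and below them in DNM2 and FYN.

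N-long KD changed 1 of the 40 pairs, TPM1, at the same threshold. Across all tested events 0.146% passed, and 0.0268% of MXE events (3 of 11197). The TPM1 5′ exon was at 88.3% and 86.8% in the 24 hr replicates, 77.4% at 48 hr and 89.1% at 96 hr, above the control of its set in all 3 sets that hold one. The difference was 8.66 points (SD 5.61, n = 3 sets; log2 odds ratio 0.82 ± 0.12, edgeR adjusted p = 0.00201). It was lost without the 48 hr control (adjusted p = 0.197) or the 48 hr N-long library (0.116), and with DESeq2 (1) and limma (0.617). ACTN1 (log2 odds ratio 0.99 ± 0.26, adjusted p = 0.533), PKM (0.68 ± 0.17, adjusted p = 0.348), DNM2 (-0.80 ± 0.24, adjusted p = 0.825) and FYN (-0.45 ± 0.20, adjusted p = 1) did not pass in N-long KD. Since all knockdowns share the same controls, these values are not independent of those in total KD.

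In N-short KD none of the 40 pairs and none of the 11197 MXE events passed the threshold (0% of all tested events passed). This does not show that their shares were unchanged. At an unadjusted p under 0.05, edgeR had 101 of the 11197 MXE events, against 698 of 21937 events of all types. DESeq2 had 1 MXE event and 143 of all types, and limma 405 and 1200, with 0 past the adjusted threshold by each. TPM1 was at 85.1% in both 24 hr replicates, 64.5% at 48 hr and 87.2% at 96 hr in N-short KD, a log2 odds ratio of 0.25 ± 0.12 against control. N-long against N-short KD, which meet in 4 sets, gave 0.58 ± 0.11 for TPM1 with an edgeR adjusted p of 0.0502, just above the threshold, so the isoform knockdowns were not shown to differ for this pair. It passed under 5 of 11 alternatives and in 5 of 14 fits that left out 1 library. None of the 40 pairs passed in that contrast, where 0.0775% of all tested events and 0.0179% of MXE events (2 of 11197, in GOLIM4 and APP) did. There edgeR had 93 MXE events at an unadjusted p under 0.05, and 741 of the 21937 events of all types.

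**Figure D4:**
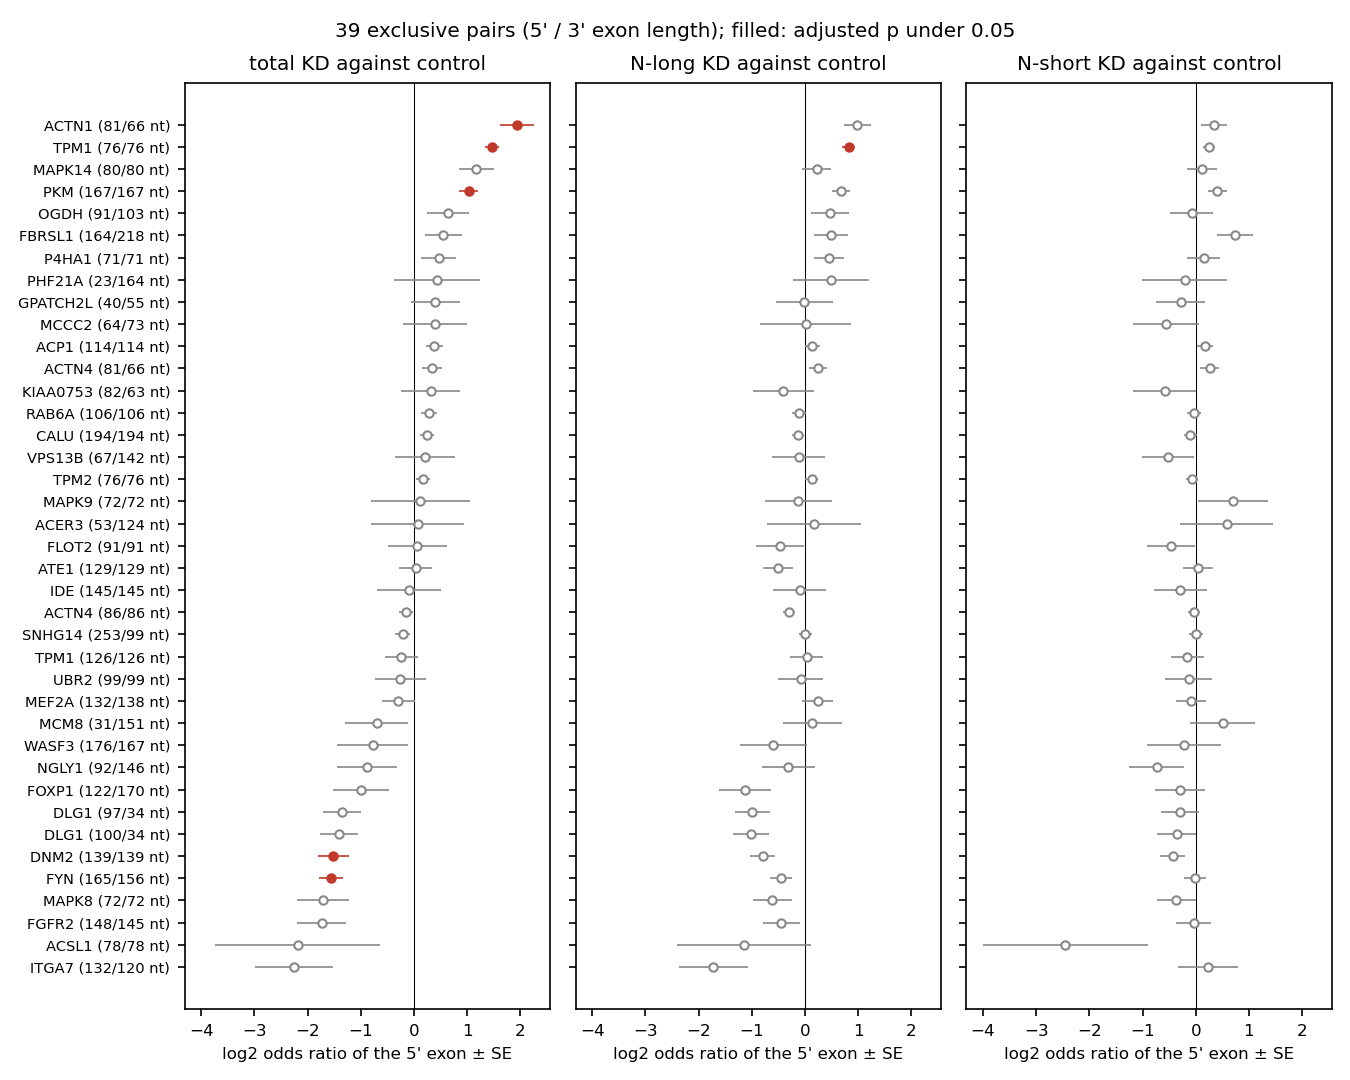
Log2 odds ratio of the 5′ exon ± SE (horizontal axis) of 39 of the 40 exclusive pairs (rows, with exon lengths) in total, N-long and N-short KD against control. The filled points passed the test: 5 in total KD, 1 in N-long KD and none in N-short KD.

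In total KD, edgeR gave an unadjusted p under 0.05 to 11 of the 40 pairs, including the 5 that passed. The same held for 166 of 11197 MXE events and 1064 of 21937 events of all types. Among pairs that did not pass in total KD but had an unadjusted p under 0.05 were those of 5 genes with 18 to 99 reads in the control and total KD libraries. FGFR2 (fibroblast growth factor receptor 2) chooses between the epithelial IIIb exon, 5′, and the mesenchymal IIIc exon, 3′. Its IIIb share was 18.3%, 8.99% and 10.7% in the controls at 24, 48 and 96 hr and 5.00%, 3.12% and 2.41% in total KD, below every control (log2 odds ratio -1.74 ± 0.46, edgeR adjusted p = 0.245). MAPK8 (the stress kinase JNK1) had 12.7%, 10.5% and 15.1% in the controls and 5.00%, 3.49% and 1.85% in total KD (-1.71 ± 0.48, adjusted p = 0.320). MAPK14 (the stress kinase p38α) had 77.4%, 73.2% and 62.5% in the controls and 79.3%, 90% and 77.5% in total KD (1.17 ± 0.33, adjusted p = 0.348). ITGA7 (integrin α7), the pair at the lower limit of junction balance, had 22.2%, 31.6% and 20.0% in the controls and 0%, 14.3% and 3.70% in total KD, from 18 to 28 reads (-2.26 ± 0.73, adjusted p = 0.449). The 0% was 0 of 27 reads, with a Wilson upper limit of 12.5%.
DLG1 (a membrane scaffold) gave 2 overlapping pairs that share a 34 nt exon, at log2 odds ratios of -1.41 ± 0.35 and -1.35 ± 0.35 (edgeR adjusted p = 0.120 and 0.158). With the 100 nt exon the share ranged over 86.5% to 92.4% (controls) and 63.6% to 80.3% (total KD), without overlap.

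Other pairs had closer shares and did not pass. CALU (a calcium-binding protein of the secretory pathway) ranged over 82.2% to 85.3% (controls) and 85.5% to 86.8% (total KD), from 341 reads or more. ACTN4 with the 86 nt exons ranged over 39.4% to 49.0% and 38.2% to 48.4%. TPM2 (tropomyosin 2), whose 76 nt pair has the lengths of the TPM1 pair, ranged over 24.5% to 33.2% and 29.6% to 35.9% (log2 odds ratio 0.17 ± 0.12, adjusted p = 1). RAB6A (a GTPase of Golgi transport) ranged over 57.0% to 65.7% and 61.4% to 74.3%. MEF2A (a muscle and neuron transcription factor) ranged over 64.7% to 78.0% and 57.1% to 76.8%. A p that misses the threshold does not show that these shares were equal.

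A list of 47 symbols of genes known for mutually exclusive exons held MACROH2A1 also under an older symbol, H2AFY. Of these symbols, 29 had an MXE row, 19 a tested event and 14 one of the 40 pairs. These 14 genes gave 16 of the 40 pairs (40%). Among the list's 53 tested events, 3 passed with a higher and 2 with a lower 5′ exon in total KD, all 5 of them exclusive pairs. In this comparison 0.387% of all tested events and 0.116% of tested MXE events passed. The median absolute log2 odds ratio of the list's 53 tested events was 0.17 in total KD, 0.12 in N-long KD and 0.11 in N-short KD, close to 0.15, 0.13 and 0.13 over all tested MXE events. For its 16 exclusive pairs, a class defined after the data were seen, it was 1.10, 0.45 and 0.20. FGFR1 had 9 tested events, none of them exclusive, and SNAP25, DNM1, MEF2C and the AMPA receptor genes GRIA1 to GRIA4 had no row. Of 30 genes known for RBFOX-responsive exons, 22 had 76 tested events and 2 genes (FGFR2 and MEF2A) an exclusive pair. In total KD 2 of the 76 passed with a higher and 3 with a lower 5′ exon, none of them an exclusive pair. Those that passed include 3 ENAH events that share junction reads. The median absolute log2 odds ratio was 0.18 over the 76 events and 1.02 over the 2 pairs.

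The other 8 MXE events that passed in total KD were not exclusive in the reads. They lay in ENAH (3 events), GOLIM4, APP, NASP, EPB41 and MSI1. The 3 ENAH events share junction reads with each other and are not independent observations. In GOLIM4 (a Golgi membrane protein) 939 reads joined the exons of 84 and 159 nt, and the downstream junction of the 84 nt exon had 1 read in the 14 libraries. Its 5′ share was 67.5%, 68.2% and 59.6% in the controls and 23.0%, 18.3% and 10.9% in total KD, without overlap (log2 odds ratio -3.13 ± 0.34, edgeR adjusted p = 1.17e-05). In ENAH (an actin regulator at cell protrusions), the junction that leaves the 63 nt exon past its neighbour also had 1 read, against 4578 for the junction entering the exon. The 5′ share of this event ranged over 36.1% to 46.2% (controls) and 23.9% to 24.7% (total KD), without overlap (log2 odds ratio -1.04 ± 0.11, edgeR adjusted p = 3.64e-06). In 4 of the 8 events, 1 exon also passed as a cassette exon in the same comparison: the 84 nt exon of GOLIM4, the 63 nt exon of ENAH, the 57 nt exon of APP (amyloid precursor protein) and the 57 nt exon of MSI1 (an RNA-binding protein). Inclusion of each of these 4 was lower in total KD. Cassette counts of an exon draw on junction reads that its MXE counts also use, so these calls are not independent of each other. Of all tested cassette exons, 0.757% passed in total KD. GOLIM4 and APP also passed in N-long KD (log2 odds ratios -2.07 ± 0.30 and 0.37 ± 0.07, edgeR adjusted p = 0.0017 and 0.0225). In N-long KD, GOLIM4 lost the call without the 96 hr control (adjusted p = 0.0626). APP lost it without either 24 hr N-long library or without the control or N-long library of 48 or 96 hr, with a highest adjusted p of 0.626. In total KD, MSI1 passed in 6 and EPB41 in 12 of 14 fits that left out 1 library.

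Between cell lines, with 1 library each and therefore no test, 38 pairs met the junction criteria with at least 20 reads in each of wild-type HUES66, HEK293 and A375 total RNA. They include pairs outside the 40, such as MACROH2A1 and TPM3. In 10 of the 38 the shares spanned 20 points or more, as did 3.14% of all 8750 events with these reads. With at least 50 reads in each line, 2 of 16 pairs did. The median span was 10.2 points in the 38 pairs and 6.55 in all. In 13 pairs the 95% Wilson intervals of at least 2 lines lay apart (34.2%), and in 2.88% of all events.

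FOXP1, a forkhead transcription factor, had the widest span. Its 5′ exon took 35 of 35 reads in A375 (Wilson interval 90.1% to 100%), 43 of 43 in HEK293 (91.8% to 100%) and 31.7% of 60 in HUES66 (21.3% to 44.2%). The 3′ exon thus had reads in HUES66 and none in the other lines. ACTN4 with the 86 nt exons had 99% in A375, 96.6% in HEK293 and 49.9% in HUES66 (46.2% to 53.5%), each from 324 reads or more. DNM2 had 80% in A375, 68.8% in HEK293 and 35.4% in HUES66 (28.7% to 42.8%), so HUES66 stood lowest. TPM2 had 77.4% in A375, 34.1% in HEK293 and 27.6% in HUES66, and ACSL1 (a fatty acid CoA ligase) 37.9% in A375, 95.7% in HEK293 and 100% in HUES66. For TPM2 and ACSL1 A375 stood apart, and the intervals of HEK293 and HUES66 overlapped. The DLG1 pair with the 97 nt exon had 36.4% in A375, 60.4% in HEK293 and 82.0% in HUES66, and the intervals of A375 and HEK293 overlapped. MEF2A and FYN spanned 23.4 and 21.2 points with overlapping intervals. The intervals of PKM overlapped, at M1 shares of 2.02% in A375, 1.35% in HEK293 and 1.47% in HUES66. TPM1 had 96.0% in A375, 93.9% in HEK293 and 83.0% in HUES66, and ACTN1 97.9%, 100% and 93.5%. RBFOX2 took 78.2 of 1000000 junction reads in A375, 98.1 in HEK293 and 119.7 in HUES66, and their part in these differences was not tested.

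**Figure D5:**
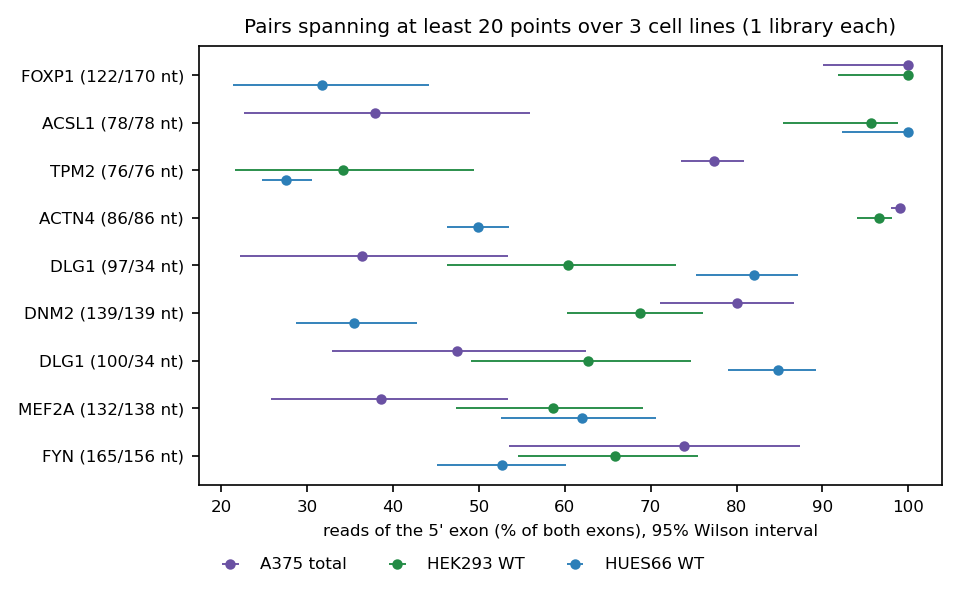
Share of the 5′ exon (horizontal axis, percent of the reads of both exons) with 95% Wilson intervals in A375 total, HEK293 and wild-type HUES66 RNA, 1 library each, for 9 of the 10 exclusive pairs whose shares spanned at least 20 points (rows, with exon lengths). HUES66 (blue) lies apart from both other lines in FOXP1, ACTN4, DNM2 and both DLG1 pairs, and A375 (purple) in ACSL1 and TPM2.

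Nuclear and cytoplasmic RNA of A375, also 1 library each, were compared over 34 pairs. The shares differed by a median of 2.17 points and at most by 10.9, and the Wilson intervals overlapped in 34 of 34. They lay apart in 71 of all 7898 events (0.899%), so a count of 0 among 34 is near that share. Over all 7898 events with 20 reads in both fractions, 1.63% differed by 20 points or more. ACTN4 with the 86 nt exons had 99.1% in the nucleus and 99.3% in the cytoplasm, TPM2 73.6% and 73.1%, DNM2 78.4% and 80.4%, TPM1 96.3% and 97.2%, and PKM 1.73% and 1.55%. The widest differences among all events with intervals apart were 38.3 points in UGGT2 and 37.6 in GGCX, and neither was among the 34 pairs. The largest differences within the 34 were in P4HA1 (a collagen prolyl hydroxylase subunit), with 35.2% of 71 nuclear reads and 46.2% of 26 cytoplasmic reads, and the DLG1 pair with the 100 nt exon, with 60.9% of 23 and 50% of 90 reads. At this depth differences of a few points were not detectable for most pairs.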

How the data were processed

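The 19 libraries hold RNA of cell lines from which ribosomal RNA was depleted, per the labels' protocols. The authors deposited, per library, raw counts of reads per splice junction, without normalization. They also deposited 9 rMATS tables, with counts of both forms and inclusion levels (a fraction from 0 to 1) per library, per the file headers. Alignment used STAR 2.7.1 and SAMtools 1.9 on hg38, per the submitters' processing notes. The tables list 1 exon of each MXE row. The partner and flanks were found from form lengths, GENCODE 29 exons and observed junctions, and kept where table and junction counts matched. In 135 events more than 1 partner met this rule. In the tables, 9 per-library columns that match no labelled sample were not used. Members, gene lists and tests were chosen with earlier results of these data known.

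Counts of the 2 forms were fitted as paired columns per library in edgeR 4.0.16 (R 4.3.3; quasi-likelihood F-test, TMM) over 21937 events of all types, with terms for library, form by library set and form by knockdown. Benjamini-Hochberg adjusted p-values under 0.05 passed. Library sets are 24 hr replicate 1, 24 hr replicate 2 (which library names place in different series), 48 hr and 96 hr. After removal of knockdown means, log2 ratios had correlations of median 0.28 over 18 same-set pairs (lowest 0.19) and -0.13 in 55 of different sets. DESeq2 1.42.0 and limma 3.58.1 (pseudocount 0.5) were alternatives. The fits were tested on simulated data. Shares of single libraries carry 95% Wilson intervals, which cover counting error only. Events named are those past the threshold with the same direction in each set, pairs of the 2 gene lists, the 10 widest spans between lines and the largest differences between fractions. The junction criterion, added after the data were seen, was then required of the gene list, line and fraction pairs. Without it, 8 of the 10 widest between lines and 0 of the 10 widest between fractions met it. A single pair of the 40 enters the counts and is not reported here by name. Other pairs among the 40 were named after their values were seen.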

Additional observations from a re-analysis of the deposited data

Results flagged for a closer look

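In N-short KD, the TPM1 5′ exon share of 64.5% at 48 hr stood far from the other 3 libraries of the group (85.1% to 87.2%). The control of the 48 hr set was also low, at 62.3%. Of 10 groups of 4 libraries examined, this was the 1 singled out, and chance singles out about 1 in 20.

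The responses of GOLIM4 and APP to the isoform knockdowns differed by the direct test of N-long against N-short KD. The log2 odds ratio of the 5′ exon was -1.52 ± 0.27 for GOLIM4 (edgeR adjusted p = 0.022, lower in N-long KD in 4 of 4 sets) and 0.34 ± 0.06 for APP (adjusted p = 0.0325, higher in 4 of 4 sets). Neither is an exclusive pair. GOLIM4 lost the call in 5 of 14 fits that left out 1 library, with a highest adjusted p of 0.281, and APP in 8 of 14, with a highest of 0.215. With DESeq2 and limma neither passed.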

How the results depend on the processing

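Counts of MXE events past the threshold moved with the test, and the causes were not tested. In total KD the 13 events became 3 with DESeq2, 2 with limma, 8 with upstream and 4 with downstream junctions only, and 29 with the counts of the deposited tables. In N-long KD the 3 became 0, 0, 5, 4 and 11, and 5 with wild-type HUES66 as a control of 24 hr replicate 1. For N-long against N-short KD the 2 became 0, 0, 5, 2 and 12, with 1 without a filter on low counts and 4 at a mean of 50 reads. With wild-type HUES66 as a control of 24 hr replicate 1, total KD had 18 events and N-long against N-short KD 3. Without a filter on low counts, total KD had 9 and N-long KD 2. Limited to events with at most 10% joined or skipped reads, or to the exclusive pairs (a choice made after the data were seen), the counts were 5 for total KD, 1 for N-long KD and 0 for N-long against N-short KD. Without the block for library set, the fit paired by time point alone gave 15, 2, 0 and 1 events for total, N-long, N-short and N-long against N-short KD. N-short KD had 0 under all alternatives. Leaving out 1 library gave 9 to 15 events for total KD, 1 to 3 for N-long KD, 0 for N-short KD and 0 to 4 for N-long against N-short KD.

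Directions held for TPM1, PKM, ACTN1, FYN and DNM2 in total KD under the alternatives run. With DESeq2, TPM1 still passed, while ACTN1 (adjusted p = 0.267), FYN (0.193), PKM (0.631) and DNM2 (0.825) did not. With limma FYN passed, and TPM1 (0.0936), ACTN1 (0.0835), PKM (0.133) and DNM2 (0.133) did not. Downstream junctions alone ended the calls of ACTN1 (0.397), FYN (0.127), PKM (1) and DNM2 (0.606), upstream junctions alone that of DNM2 (0.117), and no filter those of PKM (0.0900) and DNM2 (0.139). The direction of 5 events that are not exclusive turned with single junctions: GOLIM4 to 0.090 (total KD) and 0.17 (N-long KD), NASP to -0.46, EPB41 to -0.041 and 1 ENAH event to -0.093 with downstream junctions, and NASP to -0.81 and another ENAH event to 1.38 with upstream junctions, as log2 odds ratios. In these an exon has almost no reads on 1 side. The number of exclusive pairs was 44 and 31 with the weaker junction at 10% and 50% of the stronger, 48 and 27 at a mean of 10 and 50 reads, and 45 in the 5 libraries without doxycycline, of which 35 were among the 40. With 50 reads per line, 2 of 16 pairs spanned 20 points.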

Other observations

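Several of the 40 pairs lie in genes outside the list of 47 used above, which does not hold every known example of mutually exclusive exons. UBR2 and RAB6A, a ubiquitin ligase and a GTPase, had exons of 99 and 106 nt with 70 and 66 nt between them. The 5′ share of UBR2 was 8.33% to 12.8% in the controls. OGDH, a subunit of the oxoglutarate dehydrogenase complex of the citric acid cycle, had exons of 91 and 103 nt and 7.14% to 10.4% in the controls. IDE (insulin-degrading enzyme) had 94.4% to 97.1%, and ATE1 (arginyltransferase) 25% to 46.3%. The tested pair of SNHG14, a noncoding host transcript of small nucleolar RNAs, had 65.0% to 77.1% with 4.6% of reads skipping both exons. None of these passed in any knockdown.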
